A study of Mus musculus with 13 samples.

Results

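The genes described here are the D cyclins (Ccnd1, Ccnd2, Ccnd3), their kinases (Cdk4, Cdk6) and the inhibitors of cyclin-dependent kinases (Cdkn1a, Cdkn1b, Cdkn1c, Cdkn2a, Cdkn2b). Their members were all probe sets that the platform annotation gives to only 1 of these 10 symbols, which came to 22 of 22690 probe sets on the array. Ccnd2 had 7 probe sets, Ccnd1 and Cdk4 had 3 each, Cdkn1a and Cdkn1b had 2 each, and the other 5 genes had 1 each. No probe set named a member together with another gene. Probe sets of 1 gene report 1 transcript pool and are not replicates.

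The cells were keratinocytes taken from mice, which build the epidermis, all infected with a retrovirus that carried the p63 isoform DNp63alpha fused to an estrogen receptor domain. Tamoxifen, which binds that domain, was given to 12 samples that were collected every 20 min from 20 to 240 min, and 1 further array held untreated cells that carry the same fusion. Each time had a single array, so change was judged against the scatter of the arrays about a fitted curve or within a run of neighbouring times. The promoter that drives the fusion is not given in the labels, and cells without the fusion and a course without tamoxifen were not analysed here, so handling, elapsed time and induction cannot be told apart.

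D-type cyclins are made in response to growth factors, and each binds CDK4 or CDK6. The active kinase phosphorylates the retinoblastoma protein and its relatives, which frees E2F factors to drive the genes of DNA synthesis. The INK4 inhibitors, p15 from Cdkn2b and p16 from Cdkn2a, bind CDK4 and CDK6 themselves, and the CIP/KIP inhibitors p21 (Cdkn1a), p27 (Cdkn1b) and p57 (Cdkn1c) bind cyclin-CDK complexes, above all those of CDK2. Cdkn2a also encodes p19ARF, which stabilises p53, from another reading frame. In epidermis p21 and p27 are known as brakes on the growth of keratinocytes, and p63 is known to bind sites of the p53 family.

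Promoters were matched by symbol in a RefSeq table of build GRCm38.p6, each reaching from 250 bases before to 50 after a transcript start, and 7 of the 10 genes had at least 1. Ccnd1, Ccnd2 and Cdkn1c had no entry. The promoters of both kinases and the upstream of the 2 Cdkn1a starts are shown because they hold the E-box CACGTG, a site of the Myc family, or the half-site of the p53 family (1 decamer, by name). Capitals mark CACGTG in the Cdk4 promoter (chr10:127063285-127063584, plus strand) and the Cdk6 promoter (chr5:3343643-3343942, plus strand), and p53 family half-sites in the Cdkn1a promoter (chr17:29090729-29091028, plus strand).
Cdk4: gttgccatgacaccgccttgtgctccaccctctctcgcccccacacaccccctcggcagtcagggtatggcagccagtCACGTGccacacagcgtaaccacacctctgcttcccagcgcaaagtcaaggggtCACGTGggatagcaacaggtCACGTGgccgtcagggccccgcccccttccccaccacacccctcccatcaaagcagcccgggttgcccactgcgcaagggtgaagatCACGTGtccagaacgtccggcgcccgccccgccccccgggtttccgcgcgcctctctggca
Cdk6: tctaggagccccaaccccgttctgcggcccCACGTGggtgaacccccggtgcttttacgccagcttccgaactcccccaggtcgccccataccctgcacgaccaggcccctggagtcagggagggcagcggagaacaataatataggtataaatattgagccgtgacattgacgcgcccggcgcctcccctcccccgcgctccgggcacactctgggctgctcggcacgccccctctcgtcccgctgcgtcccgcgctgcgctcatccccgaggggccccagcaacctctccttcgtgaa
Cdkn1a, upstream start: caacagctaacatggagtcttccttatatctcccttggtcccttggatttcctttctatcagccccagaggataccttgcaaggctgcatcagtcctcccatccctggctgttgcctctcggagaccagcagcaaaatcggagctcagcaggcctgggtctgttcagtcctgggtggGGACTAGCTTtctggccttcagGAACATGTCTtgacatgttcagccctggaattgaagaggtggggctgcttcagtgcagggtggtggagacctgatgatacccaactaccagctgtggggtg
The Cdk4 window held 4 matches to CACGTG, starting 172, 118, 98 and 11 bases before the start. Of all 32851 promoters in the table, 7.15% held at least 1 such match and 0.0244% held 4 or more. The Cdk6 window held 1 match, 220 bases before its start. The half-site matched 2 times in the upstream Cdkn1a window, 73 and 51 bases before that start, where 8.36% of all promoters held at least 1 match and 0.359% held 2 or more. Both strands were searched, and CACGTG reads the same on both, as does the half-site. The GC box GGGCGG was in 8 of the 10 member promoters and in 35.7% of all promoters. CCAAT was in 3 of the 10 and in 37.4% of all. The AP-1 site TGACTCA (5.2% of all promoters) and the E2F sites TTTGGCGC (0.514%) and TTTCGCGC (0.323%) were in none of the 10 windows. These are matches of letters, not shown sites of binding.

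Intensities are given on the deposited linear scale, and changes as log2(intensity + 16), a scale that understates the change of dim probe sets. Array medians lay between 237.4 and 251.5 intensity units, so the deposited arrays share nearly 1 level and each change is relative to the bulk of the transcripts. The basal keratins Krt5 and Krt14, which define the basal keratinocyte, were at percentiles 99.9 and 100 of mean level among the 20393 probe sets named to 1 gene. The melanocyte genes Dct, Tyrp1 and Pmel, at percentiles 93.9, 89.8 and 89.5, were bright too, with Mitf at 63.5 and Tyr at 63.1. Immune markers ran from Ptprc at percentile 2, Cd207 at 22.3 and Cd3e at 32.7 to H2-Ab1 at 42.4 and Csf1r at 68.2. Fibroblast markers ran from Lum at 7.1 to Col1a2 at 43.7 and Col1a1 at 51.3. The endothelial markers Cdh5, Kdr and Pecam1 were at 10.4, 20 and 21.3. The summed intensity of the 5 melanocyte markers was 5704.4 to 6363.3 at 80 to 240 min and 6053.5 to 6956 at 0 to 60 min, and that of 6 fibroblast markers was 930.1 to 1053.2 and 985.7 to 1033.7. The 5 immune markers summed to 971.4 to 1148.4 and 943.8 to 1054.9, and the 3 endothelial markers to 314 to 345.2 and 322.4 to 340, at the later and the earlier times. The 3' minus 5' difference of the Gapdh control, a measure of RNA integrity, was -0.153 to -0.0934 at 80 to 240 min and -0.141 to -0.105 at 0 to 60 min. That of Actb was 0.229 to 0.345 at 80 to 240 min and 0.214 to 0.277 at 0 to 60 min, with the highest values at 80 and 100 min. Keratinocyte markers moved too. The 5 basal markers summed to 42381.9 to 44878.9 at 80 to 240 min and 41153 to 43320.6 at 0 to 60 min, and 3 of them were higher at the later times: Krt5 (1.05-fold, no overlap; limma adjusted p = 0.00689), Itga6 (1.15-fold, adjusted p = 0.00387) and Col17a1 (1.1-fold, adjusted p = 0.0486). The 4 suprabasal markers summed to 8929.3 to 10881.2 and 8589.9 to 9675.4, with Lor, the loricrin of the cornified layer, higher at the later times (1.29-fold, no overlap; adjusted p = 0.00217) and Ivl, involucrin, falling along a straight line over the 13 arrays to 0.691 times its start (adjusted p = 0.000406). In the melanocyte list Mitf was lower at the later times, with no overlap (0.846-fold, adjusted p = 0.00723), and in the fibroblast list Col3a1 was lower (0.908-fold, adjusted p = 0.0126). The part of these cells and of RNA integrity in the results below was not tested.

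The D cyclins and Cdk4 were higher late in the course, and of the 5 inhibitor genes among the members only Cdkn2b passed with a rising trend. Along a straight line over all 13 arrays, 12 of the 22 probe sets rose and 0 fell (limma, Benjamini-Hochberg adjusted p under 0.05), where 12.2% of all 20393 probe sets rose and 10.2% fell. The 12 were all 3 of Ccnd1, all 3 of Cdk4, the 1 of Ccnd3, 4 of 7 of Ccnd2 and the 1 of Cdkn2b. With each gene read on its brightest probe set, 5 of 10 rose, against 13.1% of 12394 genes. The median change of the 22 probe sets over 4 h was 0.23 on the log2 scale, against -0.0034 over all 20393. On the brightest probe set of each of the 10 genes the median was 0.11. Among the 12236 probe sets at or above the 40th percentile of mean level it was 0.014. Fewer cells of a type and less RNA per cell cannot be told apart in such bulk samples. Members are brighter than most: 19 of the 22 were at or above the 40th percentile of mean level, and 18.1% of the 12236 probe sets there rose.

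**Figure D1:**
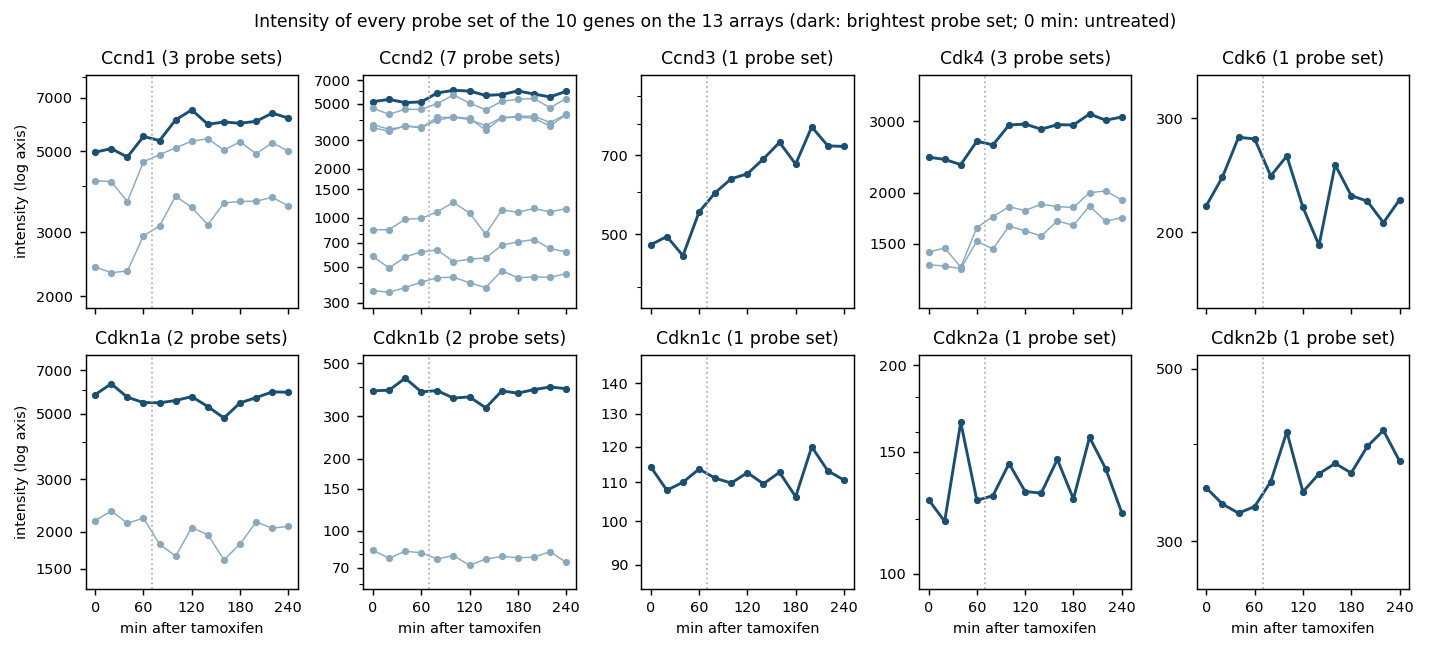
Intensity (log axis, a range of its own in each panel) of the 22 probe sets against minutes after tamoxifen, with 0 for untreated cells, 1 panel per gene, the brightest probe set dark and the others pale; the dotted line lies between the 60 and 80 min arrays. Ccnd1, Ccnd3 and Cdk4 climb between 40 and 120 min and stay above their first 3 values, while Cdkn1c and Cdkn2a stay below 166 intensity units throughout.

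The same change was measured as the mean of the 9 arrays from 80 to 240 min minus the mean of the 4 arrays up to 60 min. That break was located on these arrays, so its p-values are not independent of the choice. In this comparison 13 of the 22 probe sets were higher and 1 was lower (limma, adjusted p under 0.05), where 12.7% of all 20393 were higher and 12.4% lower. For 5 of the 22 every later array lay above every earlier one and for 0 below, a pattern that 7.18% and 6.73% of all probe sets showed. The 5 were 2 of Ccnd1 and 1 each of Ccnd2, Ccnd3 and Cdk4. Of the 12236 probe sets at or above the 40th percentile of mean level, 18.5% were called higher and 17.3% lower. Among these, every later array lay above every earlier one for 10.6% and below for 10.2%.

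**Figure D2:**
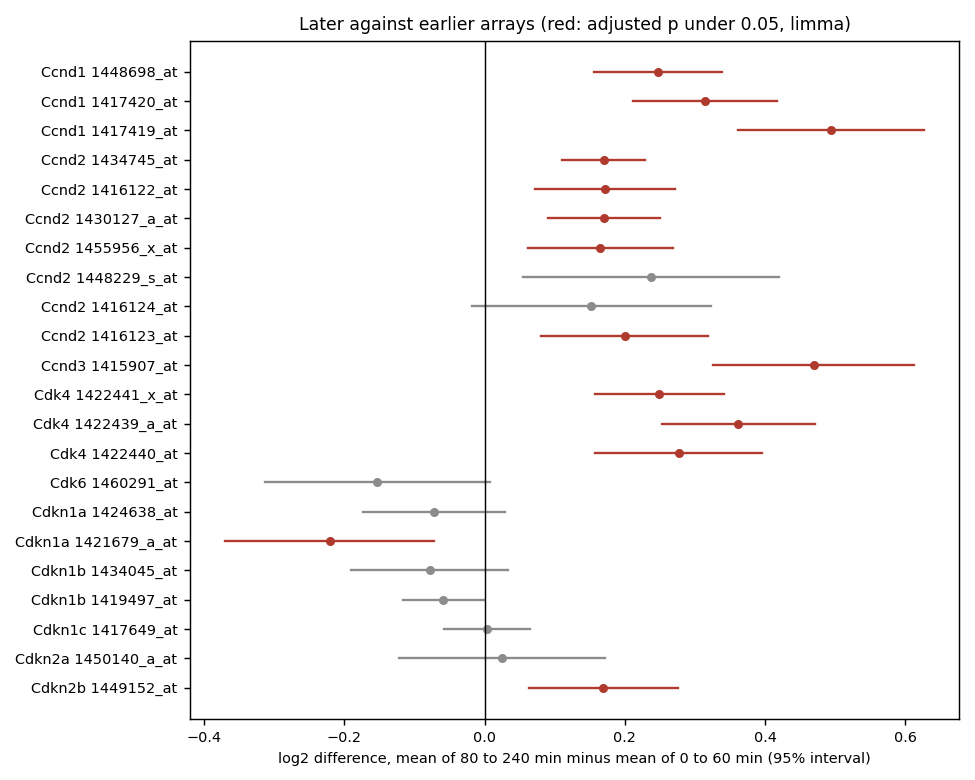
Log2 difference between the mean of the 9 arrays at 80 to 240 min and that of the 4 arrays at 0 to 60 min for the 22 probe sets, as points with 95% intervals from the limma fit, red where the adjusted p is under 0.05. The D cyclin and Cdk4 points all lie to the right of 0, from 0.15 to 0.49, and the only red point on the left is Cdkn1a 1421679_a_at at -0.22.

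Ccnd3, the D cyclin found in most tissues, had the largest change along the line among the 22. Its 1 probe set, 1415907_at, read 596.9 at the lowest, 689.7 at the median and 790.4 at the highest of the 9 arrays from 80 to 240 min, against 478.2, 495.3, 456.5 and 549.8 in untreated cells and at 20, 40 and 60 min. The later arrays did not overlap the earlier ones. Along the line through the 13 arrays its log2 level rose by 0.72 ± 0.089 (SE), or 1.65-fold over the 4 h (limma adjusted p = 0.000159), and its later mean was 1.38-fold its earlier mean (log2 difference 0.47 ± 0.0675; adjusted p = 8.94e-05). After the break it read 596.9 at 80 min, 689.7 at 140 min, 790.4 at 200 min and 727.2 at 240 min. Its slope within the 9 later arrays was 0.11 ± 0.0312 per hour, which did not pass (adjusted p = 0.255).

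Ccnd1 encodes cyclin D1, the D cyclin most closely tied to mitogen and adhesion signals. Its brightest probe set, 1448698_at, read 5346.3 at the lowest, 6036.3 at the median and 6488.1 at the highest of the arrays from 80 to 240 min, against 4967.7, 5079.7, 4816.4 and 5486.1 at 0, 20, 40 and 60 min. The groups overlapped through the 60 min array, which was above the 80 min one. Along the line it rose 1.28-fold over 4 h (0.36 ± 0.0671, SE, limma adjusted p = 0.00136), and its later mean was 1.19-fold its earlier mean. The other 2 did not overlap: 1417420_at read 4890 to 5407.7 later and 3634.9 to 4676 earlier, and 1417419_at read 3116.3 to 3763.1 later and 2321.3 to 2930.8 earlier. Their changes along the line were 1.3-fold (adjusted p = 0.00935) and 1.6-fold (adjusted p = 0.000659), so the 3 probe sets gave 1 direction and different sizes. The later means of 1417420_at and 1417419_at were 1.24-fold and 1.41-fold the earlier ones. Within the 9 later arrays the slopes of 1448698_at, 1417420_at and 1417419_at were 0.04, 0.00057 and 0.051 per hour. None of these slopes passed (limma adjusted p = 0.543, 0.993 and 0.539). On 1417419_at, 60 min was the highest of the 4 earlier arrays at 2930.8, with 2406.4 next.

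Cdk4, the kinase partner that all D cyclins can use, rose on each of its probe sets. The brightest, 1422441_x_at, read 2621.6 at the lowest, 2940.1 at the median and 3123 at the highest from 80 to 240 min, against 2445.6, 2415.4, 2344.8 and 2677.6 at 0, 20, 40 and 60 min. The suffix x marks a set in which some probes can match other transcripts, and the groups overlapped at 60 and 80 min. Along the line it rose 1.31-fold (0.39 ± 0.0587, SE, limma adjusted p = 0.000364). On 1422439_a_at, where later and earlier arrays did not overlap, Cdk4 read 1747.5 to 2020.2 later and 1313.5 to 1642.5 earlier and rose 1.44-fold (adjusted p = 0.000471). On 1422440_at it rose 1.37-fold (adjusted p = 0.000377), with 1520 at 60 min above 1455.1 at 80 min. Later means were 1.19-fold, 1.28-fold and 1.21-fold the earlier ones on 1422441_x_at, 1422439_a_at and 1422440_at. In the same order, the slopes within the 9 later arrays were 0.061, 0.059 and 0.081 per hour. None of these slopes passed (limma adjusted p = 0.308, 0.329 and 0.299). The 3 courses correlated at Pearson's r of 0.94 to 0.98 over the 13 arrays, as a description of probe sets that share transcripts and arrays.

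Ccnd2, cyclin D2, changed less, and its 7 probe sets did not all pass. The brightest, 1434745_at, read 5523.7 at the lowest, 5844.4 at the median and 6063 at the highest from 80 to 240 min, against 5167, 5329.7, 5097 and 5143.7 at 0, 20, 40 and 60 min, with no overlap. Its later mean was 1.12-fold its earlier mean (0.17 ± 0.028, SE; limma adjusted p = 0.000297). Along the line it rose 1.13-fold (adjusted p = 0.0452), a call that was lost in 9 of the 13 fits that left out 1 array, those without the untreated, 20, 40, 60, 140, 160, 180, 200 or 240 min array (adjusted p up to 0.146). Within the 9 later arrays its slope was -0.015 per hour (adjusted p = 0.803).

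The other Ccnd2 probe sets had later means 1.11-fold to 1.18-fold the earlier ones, and 4 of these 6 passed in that comparison. The exceptions were 1448229_s_at (adjusted p = 0.055) and 1416124_at (adjusted p = 0.195). Some probes of 1455956_x_at can match other transcripts, as its suffix x marks. On 1448229_s_at the 140 min array read 792.4, below every other array, and the next lowest later one was 1069. Without the 140 min array its difference passed (adjusted p = 0.00119). The 140 min array was also the lowest of the later arrays on 1416122_at, 1430127_a_at, 1455956_x_at and 1416123_at. Along the line 1430127_a_at, 1416124_at and 1416123_at rose as well as the brightest, but these calls too rested on single arrays. That of 1430127_a_at was lost without the 20, 40 or 240 min array (adjusted p up to 0.0921), that of 1416123_at without the untreated or 20 min array (up to 0.0557) and that of 1416124_at without the untreated, 20, 40, 160, 180, 200 or 220 min array (up to 0.158). The later against earlier call was lost without the 20 min array for 1416122_at (0.0608) and 1455956_x_at (0.0781), and without the untreated or 20 min array for 1416123_at (up to 0.0635). After centring the arrays on their medians, the lines of 1434745_at (0.0655) and 1416124_at (0.055) did not pass. Pearson's r between pairs of the 7 courses went from 0.26 to 0.95, with a median of 0.8 over 21 pairs.

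Cdk6, the other kinase partner of the D cyclins, did not follow Cdk4. Its 1 probe set, 1460291_at, read 191 at the lowest, 224.5 at the median and 262.3 at the highest from 80 to 240 min, against 219.9, 243.4, 280.4 and 278.8 at 0, 20, 40 and 60 min. The groups overlapped, and the untreated array was lower than 9 of the 12 treated ones. The change along the line was -0.22 on the log2 scale (95% interval -0.46 to 0.02; limma adjusted p = 0.198).

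**Figure D3:**
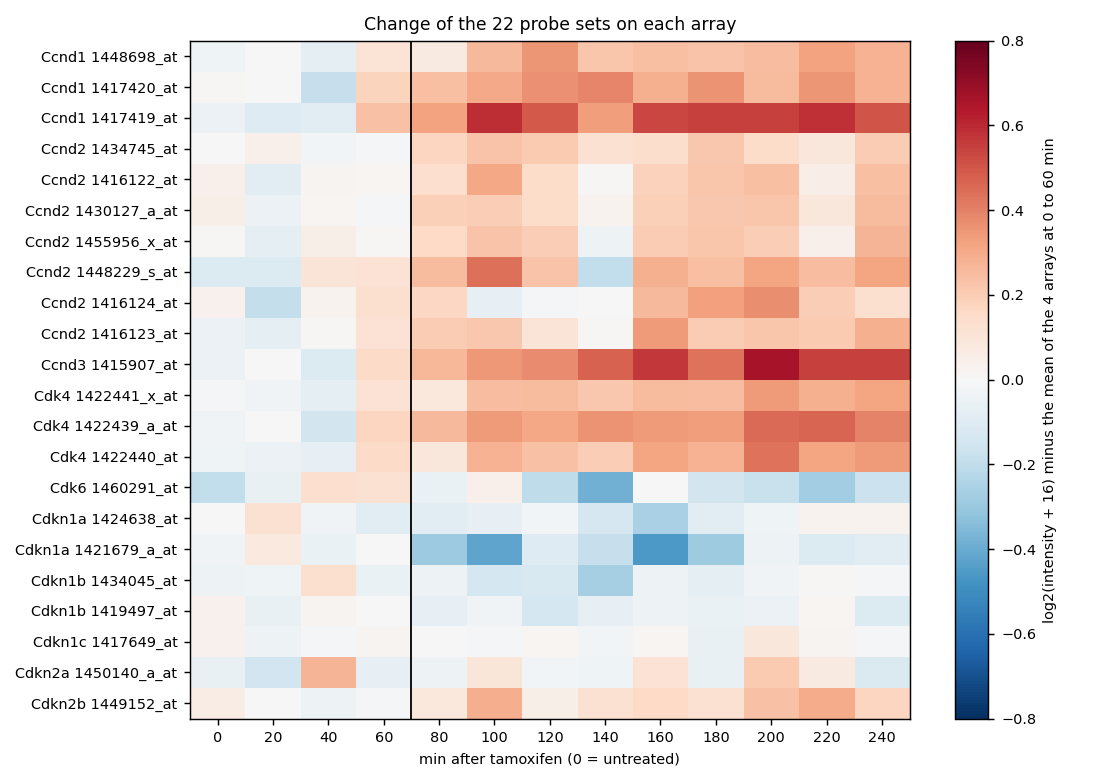
Each cell is log2(intensity + 16) of 1 probe set on 1 array minus the mean of its 4 arrays at 0 to 60 min; rows are the 22 probe sets by gene, columns are times from untreated (0) to 240 min, and the black line lies between 60 and 80 min. Rows of the D cyclins and Cdk4 are mostly red to the right of the line, with the pale 140 min column in Ccnd2, and Cdkn1a 1421679_a_at is blue at 80, 100, 160 and 180 min and pale from 200 min.

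Cdkn1a encodes p21, a target of p53 and the best known CIP/KIP inhibitor of keratinocytes. Its brightest probe set, 1424638_at, read 4836.3 at the lowest, 5540.9 at the median and 5925.1 at the highest from 80 to 240 min, against 5800.6, 6311, 5684.5 and 5453.7 at 0, 20, 40 and 60 min. The lowest array was 160 min and the highest 20 min, the groups overlapped, and the later minus earlier difference was -0.07 (95% interval -0.17 to 0.03; limma adjusted p = 0.311). The dimmer 1421679_a_at read 1814.8, 1653.6, 2064.4, 1951.1, 1606.6 and 1816 from 80 to 180 min and 2156.1, 2053.6 and 2084 at 200, 220 and 240 min, against 2179, 2348.2, 2134.4 and 2221.7 at 0, 20, 40 and 60 min. It was low at 80, 100, 160 and 180 min and, in the last 3 arrays, near the earlier values.

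On 1421679_a_at the later mean of Cdkn1a was below the earlier one by -0.22 ± 0.0705 on the log2 scale (SE, 13 arrays; limma adjusted p = 0.0294). That call was lost without the untreated, 20, 40 or 60 min array (adjusted p up to 0.099) and after quantile normalization (adjusted p = 0.0542). Neither Cdkn1a probe set passed along the line (adjusted p = 0.728 and 0.466) or with the spline (adjusted p = 0.137 and 0.191). The difference between the 2 probe sets was not tested. The half-sites shown above lie at the upstream start, and the probe sets were not assigned to starts here.

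Cdkn1b encodes p27. Its brighter probe set, 1434045_at, read 326.1 at the lowest, 383.5 at the median and 398.5 at the highest from 80 to 240 min, against 384, 386.4, 433.5 and 380.6 at 0, 20, 40 and 60 min. The 140 min array was the lowest and the 40 min array the highest, and the difference was -0.08 (95% interval -0.19 to 0.03; limma adjusted p = 0.323). The other, 1419497_at, was at percentile 3.4 of mean level, with 71.6 to 81.7 later and 76.7 to 82.8 earlier.

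Cdkn2b, which encodes the INK4 inhibitor p15, rose. Its probe set 1449152_at read 347.2 at the lowest, 377.6 at the median and 416.3 at the highest from 80 to 240 min, against 351.2, 334.9, 326 and 332.4 at 0, 20, 40 and 60 min. The groups overlapped only at 120 min, which was below the untreated array. It rose 1.18-fold along the line (0.24 ± 0.0773, SE; limma adjusted p = 0.0342), and the call was lost in 5 of the 13 fits without 1 array, those without 20, 40, 60, 200 or 220 min (adjusted p up to 0.104), and without 200 and 220 min together (adjusted p = 0.166). The later mean was 1.12-fold the earlier one (adjusted p = 0.02), a call lost without the 20 min array (adjusted p = 0.0507) or the 40 min array (adjusted p = 0.0745).

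Cdkn2a, the gene of p16 and p19ARF, and Cdkn1c, the gene of p57, were dim, at percentiles 27.1 and 18 of mean level. Cdkn2a (1450140_a_at) read 122.6 to 157.4 from 80 to 240 min, against 128, 119.1, 165.5 and 127.7 at 0, 20, 40 and 60 min, with its highest value at 40 min. The suffix a marks a set shared by transcripts of 1 gene, so p16 and p19ARF are not told apart here. Cdkn1c (1417649_at) read 106.2 to 119.9 later, against 114.2, 107.9, 110 and 113.6. The later minus earlier differences were 0.024 (95% interval -0.12 to 0.17) for Cdkn2a and 0.0032 (-0.06 to 0.07) for Cdkn1c, and neither passed (limma adjusted p = 0.851 and 0.955). At such levels these arrays would show little of a change.

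The best single break of each course was found as a description with no test. It does not show when a gradual rise began. Of the 15 probe sets past the line or the later against earlier comparison, 6 broke between 60 and 80 min, 4 between 40 and 60 min, 4 between 80 and 100 min and 1 between 140 and 160 min. Over all 6138 probe sets past either, 53.7% broke between 60 and 80 min, 12.2% between 40 and 60 min and 8.47% between 80 and 100 min. Both sets were chosen in part by the comparison split between 60 and 80 min, which by construction favours breaks there. Ccnd1 1417420_at and 1417419_at and Cdk4 1422439_a_at had their break between 40 and 60 min. Ccnd1 1448698_at and Cdk4 1422441_x_at and 1422440_at had it between 80 and 100 min, Ccnd3 and 4 of the 7 Ccnd2 probe sets between 60 and 80 min. The 60 min array of Ccnd1, Ccnd3 and Cdk4 lay above the 3 arrays before it on each of their 7 probe sets.

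A step between 60 and 80 min and a straight line were also fitted together. With the line beside it the step passed for 4 of the 22, 3 higher and 1 lower, where 2.3% of all 20393 were higher and 3.29% lower: Ccnd1 1417419_at (0.35, adjusted p = 0.0469) and 1417420_at (0.3, adjusted p = 0.0483), Ccnd2 1434745_at (0.2, adjusted p = 0.0174) and Cdkn1a 1421679_a_at (-0.39, adjusted p = 0.0444). The step of Ccnd3 was 0.22 (adjusted p = 0.137) and that of Cdk4 1422439_a_at 0.22 (adjusted p = 0.0982) in that limma fit. With the step beside it no slope of the 22 passed, nor did 1 of all 20393. The step is itself an early-to-late contrast, so the 2 terms share much of the data.

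A spline of time, which can follow a curve of any gentle shape, passed for 7 of the 22 probe sets, against 12% of all 20393. At or above the 40th percentile of mean level, 18.1% of 12236 passed. The 7 were the 3 of Ccnd1, the 1 of Ccnd3 (limma adjusted p = 0.000478) and the 3 of Cdk4. No inhibitor, Cdk6 or Ccnd2 probe set passed. With array weights 6 more did, among them both of Cdkn1a (adjusted p = 0.00944 and 0.0346) and Cdkn2b (adjusted p = 0.0197). The whole array gained calls too: 6361 of all 20393 passed with array weights, against 2452 without.

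The first 4 treated arrays, 20 to 80 min, were set against the untreated one, the only contrast with cells that had seen no tamoxifen. None of the 22 probe sets passed (limma adjusted p = 1 for each after rounding), 0 of the 22 had an unadjusted p under 0.05, and over all 20393 probe sets 1 passed, or 0.0049%, with 416 at an unadjusted p under 0.05. The differences lay between -0.06 for Cdkn1b 1419497_at and 0.23 for Cdk6 (95% interval -0.06 to 0.52). For Ccnd1 1448698_at the interval was -0.09 to 0.21, and for Cdkn1a 1424638_at -0.21 to 0.17. The lone untreated array was assumed to vary like the others.

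The genes most like each member in time were named by Pearson's r over the 13 arrays, among probe sets at or above the 40th percentile. For Ccnd3 they were Ninj1 (0.99), Akt1 (0.98), a kinase of growth factor signalling, and Mis18a (0.98). For Cdk4 they were Phtf1, Ppp5c and Cd276 (0.98 each), and for Ccnd1 Gna11, Siva1 and Ppp1r14b (0.96 each). Ccnd2 was most like Cadm1 (0.96), Pdcd6ip and Cyb5b (0.95 each), and Cdkn2b most like Cdk5, Ttll1 and Fmc1 (0.93 each). Cdkn1a was most like Plxnb2 (0.92), Tirap (0.9) and Htra1 (0.87). Among the members' brightest probe sets, Cdk4 followed Ccnd3 (r = 0.96) and Ccnd1 (0.95), while Cdk6 and Cdk4 were at -0.44. The points of such an r share arrays and a common trend in time.

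The next steps of the pathway were followed in 3 lists, each gene on its brightest probe set. Of the 13 genes of the cyclin E and CDK2 module, 3 rose along the line and 0 fell, against 13.1% and 10.8% of 12394 genes, with a median change of 0.22. All 13 were at or above the 40th percentile of mean level, where 18.1% of probe sets rose and 14.6% fell. The count of 3 depended on single arrays: without 60 min 5 of the 13 rose, where 11.8% of all 20393 probe sets did. Without 200 and 220 min 8 of the 13 rose and 0 fell, where 9.6% of all 20393 probe sets rose in that fit. The 5 added were Ccne2 (adjusted p = 0.00132, against 0.631 with all arrays), Ccnh (0.0137), Cks2 (0.0299), Skp2 (0.0473) and Ccna2 (0.0493). Ccne2, the cyclin E2 gene, read 196.8 and 235.4 at 200 and 220 min, against 504.4 at 180 min and 478.5 at 240 min. With array weights 7 rose and 1 fell, where 15.1% of all 20393 probe sets rose and 14.8% fell. With either filter on dim probe sets 5 rose and 1 fell. Over all probe sets 20.3% rose and 16.2% fell with the 40th percentile filter. With 1 filtered probe set per gene these shares were 22.3% and 17.6%. Ccne1, the cyclin E1 gene that E2F drives, read 319.3 to 421.3 at 80 to 240 min and 243.7 to 319.9 at 0 to 60 min and rose 1.66-fold (0.73 ± 0.106, SE; limma adjusted p = 0.000291). Cks1b, a partner of CDK and of the p27-degrading ligase, rose 1.34-fold (adjusted p = 0.00765). Cdkn2d, a further INK4 inhibitor gene, rose 1.35-fold (adjusted p = 0.000258), and Cdkn2c, another, missed the threshold along the line (-0.24, adjusted p = 0.0584). It passed as falling in 5 alternatives that kept all 13 arrays. These were the 40th percentile filter (0.0396), 1 filtered probe set per gene (0.0354), median centring (0.0413), no intensity trend (0.048) and array weights (0.0239). In the fit without the 20 min array, and in that without the 80 min array, 3 genes of the list rose and 1 fell. In the later against earlier comparison Cdkn2c fell (-0.19, adjusted p = 0.0144), with 474.5 to 534.4 later and 512.2 to 655 earlier, a call lost without the 40 min array (adjusted p = 0.088). The 4 INK4 genes thus had Cdkn2b and Cdkn2d rising, Cdkn2c lower in the later arrays and Cdkn2a with no call.

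Of 13 pocket protein and E2F genes, 10 were analysed, and 3 of them rose and 1 fell along the line, where 13.1% of 12394 genes rose and 10.8% fell. All 10 were at or above the 40th percentile of mean level, where 18.1% of probe sets rose and 14.6% fell. Rbl2, the pocket protein p130, rose 1.48-fold (limma adjusted p = 0.0064), Tfdp1, the shared partner of E2F factors, rose 1.26-fold (adjusted p = 0.00397), and the repressor E2f8 rose 1.23-fold (adjusted p = 0.0125). E2f5, which works with p130 as a repressor, fell to 292.7 to 335.9 at 80 to 240 min, against 362.3 to 409.6 at 0 to 60 min (-0.34 ± 0.1, SE; adjusted p = 0.0232). The line of E2f8 did not pass without the untreated or 20 min array (adjusted p up to 0.0542), nor that of E2f5 without the untreated, 20 or 40 min array (up to 0.0875). Rb1, the retinoblastoma gene, had a change of -0.022 (adjusted p = 0.94) and E2f1 one of 0.11 (adjusted p = 0.452). In the later against earlier comparison 4 of the 10 were higher and 2 lower, where 13.4% of 12394 genes were higher and 13% lower. The 2 were E2f5 and E2f4. E2f4 read 317.4 to 351.4 later and 357.3 to 374.6 earlier, with no overlap (limma adjusted p = 0.0195). Along the line E2f4 did not pass (limma adjusted p = 0.102).

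Of 22 genes known to regulate D cyclins or CDK inhibitors, 21 were analysed, and 8 fell and 0 rose along the line, where 10.8% of 12394 genes fell and 13.1% rose. Among the 21, 20 were at or above the 40th percentile of mean level, where 14.6% of probe sets fell and 18.1% rose. Klf6, Jun, Fosl1 and Mxd1 changed most, with values at 4 h of 0.416, 0.499, 0.569 and 0.581 times those at the start along the line. Jun, an AP-1 factor known to act on the cyclin D1 gene in other cells, read 974.5 to 1274.7 at 80 to 240 min and 1834.2 to 1882.5 at 0 to 60 min (limma adjusted p = 0.00039). Myc, whose protein binds E-boxes and is known to act on Cdk4, read 1941.5 to 2263.5 later and 2624.9 to 2897.6 earlier (-0.54 ± 0.089, SE; adjusted p = 0.000602). Gsk3b, the kinase that marks cyclin D1 protein for turnover, fell to 0.751 times its start along the line (adjusted p = 0.00543). Mdm2, another p53 target, had a change of 0.02 (adjusted p = 0.936).

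**Figure D4:**
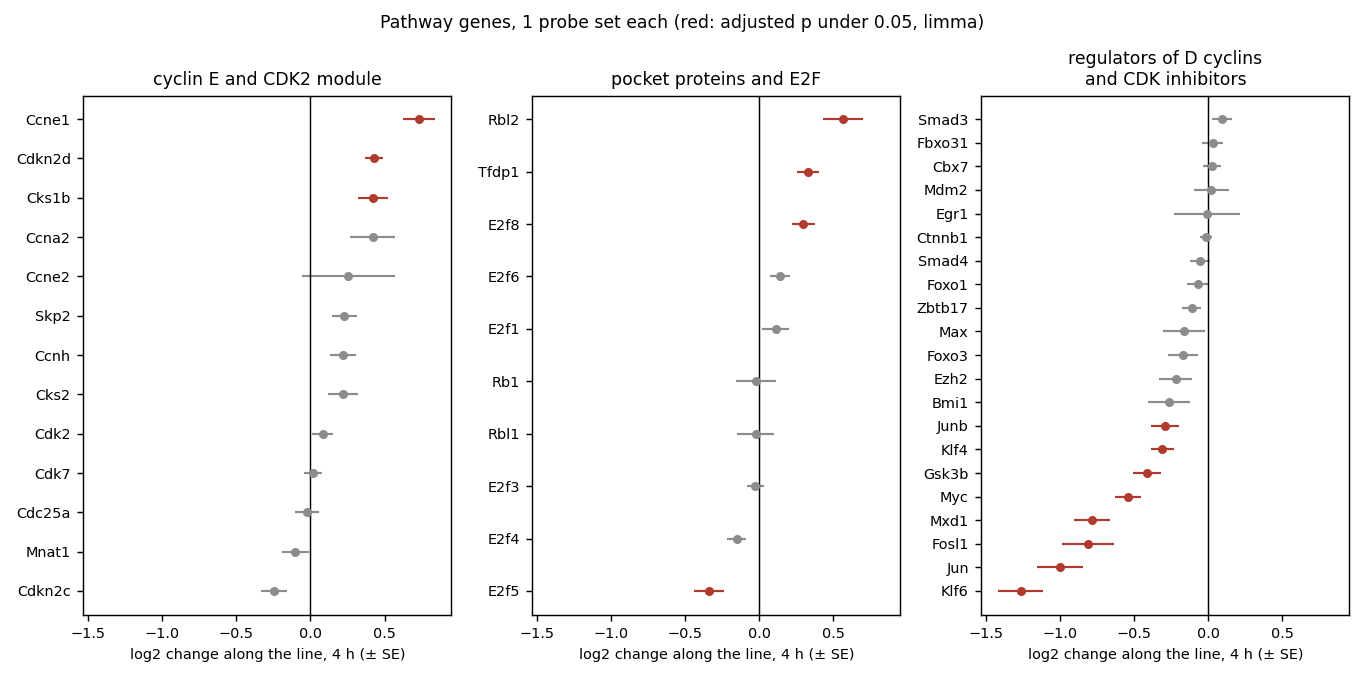
Log2 change over 4 h along the straight line (± SE, 13 arrays) for the genes of 3 lists, 1 probe set per gene, sorted by size, red where the limma adjusted p is under 0.05. Ccne1, Cdkn2d, Cks1b, Rbl2, Tfdp1 and E2f8 are red on the right, E2f5 and 8 regulators from Junb to Klf6 are red on the left.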

How the data were processed

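From total RNA of 13 samples, biotin-labelled cRNA went onto Affymetrix arrays, per the labels. Each deposited value is a linear intensity of 1 probe set on 1 array. For the software that summarised and scaled them, the name was not given in the sources used here. They were used as log2(intensity + 16), computed here from the deposited intensities with no further normalization. The platform table gave 1 gene to 20393 probe sets, several to 691 and none to 1606; symbols of 20364 were updated through Entrez identifiers. All 20393 entered limma 3.58.1 (R 4.3.3; eBayes with an intensity trend, two-sided, Benjamini-Hochberg over all 20393): a straight line of time, a difference between 80 to 240 and 0 to 60 min, a natural cubic spline with 3 degrees of freedom, and a 4-level fit for 20 to 80 min against untreated. The fits were tested on simulated data.

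Whether each array had its own culture is not stated, so the p-values rest on scatter among arrays that may be technical, and precision is limited by how many there are. The members, lists, break and tests were chosen with earlier results of these data known. Named genes were all members, the 3 genes most like each member past the line or the difference, and up to 4 of each pathway list with the largest change, beside which other list members (such as Myc, Gsk3b, Cdkn2c, Rb1, E2f1 and Mdm2) were picked after their values were seen. Alternatives covered the pseudocount, filter, normalization, moderation, array weights and left-out arrays. Best single breaks were added after seeing the data.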

Additional observations from a re-analysis of the deposited data

Results flagged for a closer look

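In 44 sets of arrays, the 9 from 80 to 240 min and the 4 up to 60 min for each of the 22 probe sets, 1 array stood apart from the rest in 6. Chance gives about 1 in 20 for independent sets of arrays without order. These arrays follow a course in time and probe sets of 1 gene share transcripts, so that rate is no valid reference here. The gap to the nearest array, as a share of the set's range, was 0.846 for Ccnd1 1417419_at and 0.854 for Cdk4 1422440_at at 60 min, the highest of the 4 earlier arrays in both (2930.8 with 2406.4 next, and 1520 with 1332.4 next). At 80 min Ccnd1 1448698_at (gap 0.529; 5346.3 with 5922.5 next) and Cdk4 1422441_x_at (gap 0.508; 2621.6 with 2865.3 next) were the lowest of the 9 later arrays. Ccnd2 1448229_s_at was lowest at 140 min (gap 0.664; 792.4 with 1069 next). Cdkn1b 1434045_at was highest of the earlier arrays at 40 min (gap 0.884; 433.5 with 386.4 next).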

How the results depend on the processing

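The calls of Ccnd1, Ccnd3 and Cdk4 along the line, in the later against earlier comparison and with the spline held in each of the 13 fits without 1 array and under the other pseudocounts, filters, scalings, moderation and array weights tried. Along the line 12 members passed, 7 to 15 in the fits without 1 array (lowest without 20 min, highest without 100 min). Of all probe sets 4571 passed, 3114 to 4809 without 1 array (lowest without the untreated array, highest without 100 min). With 1 probe set per gene above the filter these were 5 members of 8 and 2968 of 7436. With the step as a block they were 0 and 0, and with the arrays from 80 to 240 min alone, 0 and 3; these 2 fits leave little of the time range or share it with the step. In the later against earlier comparison 14 members passed, 9 to 15 without 1 array (lowest without 20 min, highest without 140 min), 5 with 1 filtered probe set per gene (3104 over all) and 4 with a line beside the step (1141 over all, against 5117). Over all probe sets the fits without 1 array passed 3581 to 5397 (lowest without 40 min, highest without 200 min). With the spline 7 members passed, 3 with 1 filtered probe set per gene and 13 with array weights. Over all probe sets that was 2452, with 6361 under array weights and 1483 to 3612 without 1 array (lowest without 20 min, highest without 240 min). The 20 to 80 min against untreated comparison passed 1 of all probe sets, 0 after the 40th percentile filter, 0 with 1 filtered probe set per gene and 2 with array weights; without the untreated array it could not be fitted. Some slopes per hour turned sign with the step as a block, and in the arrays from 80 to 240 min alone. Among those that passed along the line they were Ccnd2 1434745_at (-0.016 and -0.015), E2f5 (0.0144 and 0.0104), Junb (0.00104 and 0.018) and Fosl1 (0.011 and 0.027). Among members that did not pass, they were Cdkn1a 1424638_at (0.026 and 0.039) and 1421679_a_at (0.079 and 0.087). Cdkn1b 1434045_at (0.046 and 0.047) and 1419497_at (0.0084 and 0.0093) turned too. None of these slopes passed in either fit. The step of Cdkn2d was -0.0057 with the line beside it. Where no construction is named, the cause was not tested. No paired analysis was possible because each time had 1 array and no shared replicate number. Probe sets near background, such as those of Cdkn1c, limit what could be seen there.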
